A study of Mus musculus with 34 samples.

Results

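The matricellular genes described here are 10 genes taken by symbol, Spp1, Tnc, Thbs1, Thbs2, Postn, Sparc, Sparcl1, Cyr61, Ctgf and Fn1. All 10 are listed in both deposited tables, among 14552 genes in the first and 17406 in the second, and all 10 passed the filter of a mean of at least 1 CPM. The left ventricle (LV) of CFW mice was profiled by poly(A) RNA sequencing after myocardial infarction (MI), made by tying off the left anterior descending coronary artery for good. The first table holds 10 libraries without injection, 3 control hearts, 3 hearts 4 h post-MI and 4 hearts 24 h post-MI. The control libraries are titled sham, whereas their stress label reads no operation. The second table holds 24 libraries, 2 from sham-operated hearts labelled 4 h and 22 from infarcted hearts that received modified RNA (modRNA) at the border of the infarct right after the ligation, labelled AC or Luc. Luc stands for firefly luciferase, a reporter enzyme, and the labels do not spell out AC. AC hearts were collected at 4 h (4 hearts), 24 h (3 hearts) and 48 h (4 hearts), and Luc hearts at 4 h (4 hearts), 24 h (3 hearts) and 48 h (4 hearts). Every infarcted heart of the second table was injected, neither table has an injected heart without MI, and the only sham hearts beside the injected ones carry the 4 h label. The labels give each library as its own sample and do not name litters or surgery days, so p-values measure the spread between these libraries.

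Matricellular proteins are secreted into the extracellular matrix but mostly signal to cells rather than bear load. They bind integrins, syndecans, CD36, CD47 and growth factors, and thereby alter how cells adhere, migrate and lay down collagen. Most are scarce in the healthy adult heart and return in injured or overloaded myocardium, where fibroblasts, macrophages and stressed muscle cells are known sources. Fn1 (fibronectin) is a structural matrix glycoprotein that is often grouped with them.

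Values are read counts scaled to library size (CPM) by the authors, and 1 read was worth about 0.0313 to 0.0479 CPM in the first table. The groups differed in cell type markers. The summed level of 6 cardiomyocyte markers was 40196 to 43474 CPM in control hearts, 39009 to 41016 CPM at 4 h and 15735 to 28124 CPM at 24 h post-MI. The summed level of 6 neutrophil markers was 1.33 to 1.82, 7.33 to 30.9 and 286 to 1835 CPM in the same order. In bulk tissue, fewer cells of a type and less RNA per cell cannot be told apart. The cardiomyocyte sum of the second table was 38142 to 43289 CPM in sham hearts. In Luc hearts it was 40371 to 46502 CPM at 4 h and 48735 to 62117 CPM at 24 h. At 48 h it was 28623 to 38339 CPM. The summed level of 4 atrial markers was 60.7 to 117 CPM in sham hearts. In Luc hearts the atrial sum was 109 to 171 CPM at 4 h, 362 to 603 CPM at 24 h and 533 to 1170 CPM at 48 h. The sham and 4 h libraries, those of 24 h and those of 48 h carry different series of sample numbers or none. Time and library series thus cannot be told apart. In the injected hearts, Asah1, which encodes acid ceramidase and was looked up only after its values were seen, was the 1 gene of 12555 called between AC and Luc at 4 h and again at 24 h. Its level was 5296 to 13700 CPM in AC and 23.9 to 27.2 CPM in Luc hearts at 4 h, 104 to 305 and 22.0 to 24.7 CPM at 24 h, and 42.5 to 112 and 21.4 to 28.2 CPM at 48 h. The AC libraries therefore differed from the Luc libraries in this transcript at each time. AC library C at 24 h was most similar over all genes to a Luc library of 48 h, and the sham library 2 to a Luc library of 4 h.

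One short sequence is shown because Cyr61, one of the genes higher at 4 h post-MI, is a textbook target of the YAP-TEAD transcription factor complex. RefSeq promoter windows, from 250 bases before to 50 bases after a transcription start, were found for 6 of the 10 genes (Spp1, Tnc, Thbs2, Postn, Sparc and Cyr61, in 9 windows). In all, 3 motifs were searched on both strands, AP-1 (TGANTCA), TEAD (GGAATG) and the CArG box bound by SRF. The only match among the 9 windows was a TEAD motif of Cyr61, whose first base lies at position -103 from the start. It is at chr3:145650073-145650098 of GRCm38.p6, on the minus strand, with the motif in capitals, read 5′ to 3′ along the gene.
Cyr61: cgccaaccaaCATTCCtgagatgttt
Of all 32851 windows of this length in the table, 14.7% hold the TEAD motif, 7.81% the AP-1 motif and 1.63% the CArG box. A match describes the letters of the window and not binding in these hearts.

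Without injection, 3 of the 10 genes were higher at 4 h post-MI than in control hearts, and at 24 h post-MI 7 were higher and 2 lower. At 4 h the increases were in Cyr61, Ctgf and Thbs1. At 24 h Spp1, Tnc, Postn and Fn1 were also higher, Sparcl1 and Thbs2 were lower, and Sparc was not called. A gene was called where limma, run on log2(CPM + 1), gave a q under 0.05, with q standing for the p-value after Benjamini-Hochberg adjustment across every gene tested. At 4 h, 2.37% of the 12487 genes tested were called, 1.55% as higher and 0.817% as lower. At 24 h, 66% were called, 35.6% as higher and 30.3% as lower, so that 9 of 10 called genes there stand beside a large background. The median log2 fold change of the 10 genes was 0.60 at 4 h and 2.40 at 24 h, and over all genes tested it was -0.03 and 0.04. The 10 genes were chosen with earlier results of these data known, so this contrast is no test of the set.

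**Figure D1:**
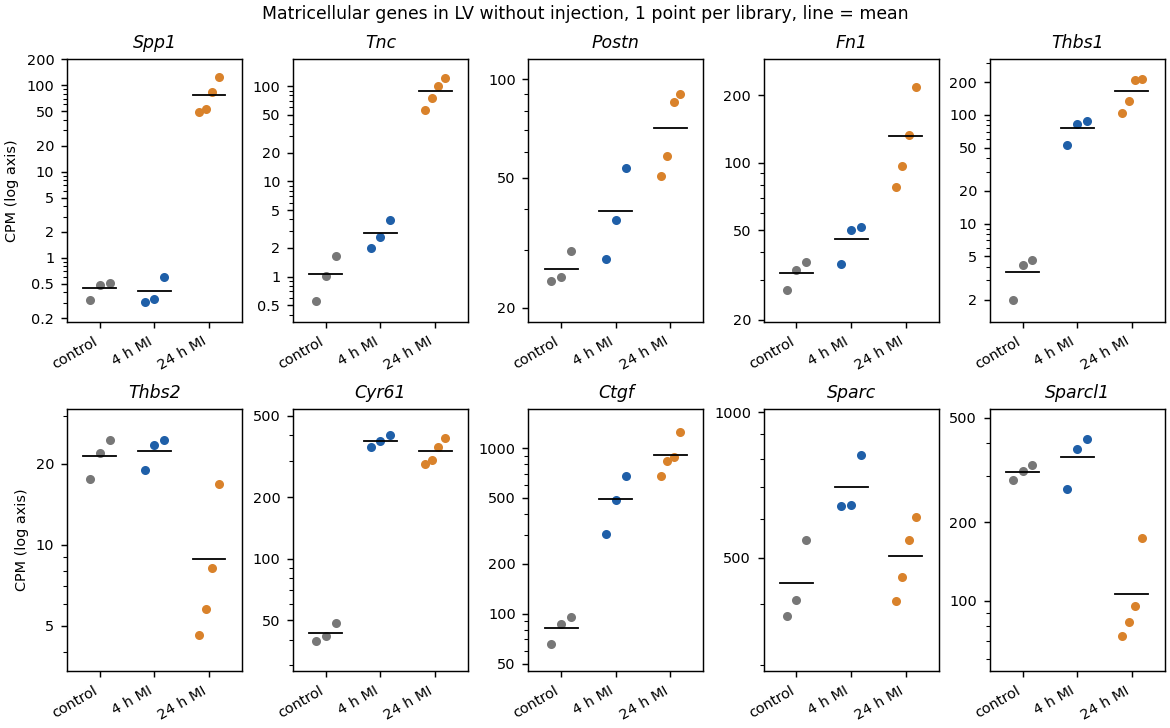
CPM of the 10 matricellular genes in the libraries without injection, on a log axis for each gene, with 1 point per library and a line at the group mean (3 control, 3 at 4 h and 4 at 24 h post-MI). Cyr61, Ctgf and Thbs1 sit above all control libraries from 4 h on, Spp1 and Tnc reach 49.5 to 124 and 56.0 to 122 CPM at 24 h, and Sparcl1 and Thbs2 sit below all control libraries at 24 h.

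**Figure D2:**
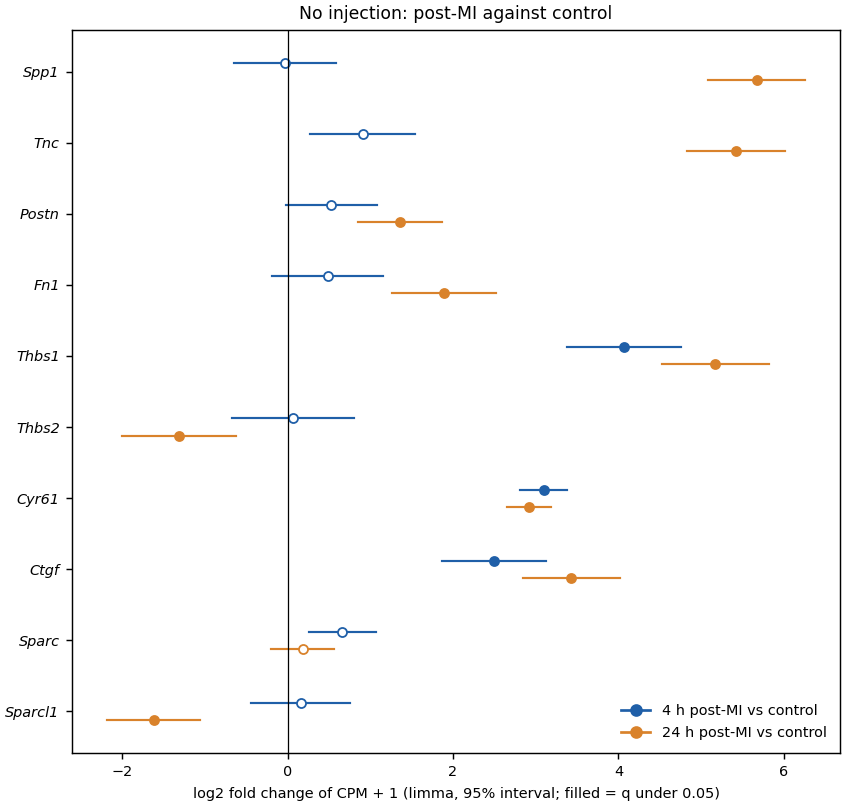
Log2 fold change of CPM + 1 against control hearts for the 10 genes at 4 h and 24 h post-MI without injection, with 95% intervals from limma, and filled points for a q value under 0.05. The intervals of Cyr61 at both times lie between 2.65 and 3.38, whereas those of Spp1 run from -0.65 to 0.59 at 4 h and from 5.09 to 6.25 at 24 h.

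Cyr61 (CCN1) and Ctgf (CCN2) are secreted CCN family proteins that bind integrins. Cyr61 is encoded at chr3:145646971-145649986 on the minus strand and Ctgf at chr10:24595442-24598683 on the plus strand of GRCm38 (mm10). Cyr61 was 41.9, 39.5 and 48.5 CPM in control libraries D, H and I, 401, 353 and 376 CPM at 4 h in C, D and E, and 291, 389, 305 and 351 CPM at 24 h in C, D, G and H. All 7 post-MI libraries were thus above all 3 control libraries, and the 2 post-MI groups overlapped. The ratio of means at 4 h was 8.70 ± 1.09 (propagated SD, n = 3 and 3), with a log2 fold change of 3.10 (SE 0.13, limma q = 3.5e-07), the smallest q value of the 10 genes at that time. At 24 h the log2 fold change was 2.91 (SE 0.12, limma q = 4.4e-08), and the direct comparison of 24 h with 4 h was not called (-0.18, 95% interval -0.45 to 0.08, limma q = 0.21).

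Ctgf was 87.0, 95.7 and 65.3 CPM in control hearts, 486, 682 and 302 CPM at 4 h, and 683, 838, 1244 and 880 CPM at 24 h. The 3 groups did not overlap, although the lowest 24 h library was barely above the highest 4 h library. The ratio to control was 5.93 ± 2.56 at 4 h (log2 fold change 2.49, SE 0.29, limma q = 0.00079) and 11 ± 3.55 at 24 h (3.43, SE 0.27, limma q = 1.4e-06). The further increase from 4 h to 24 h was 0.94 on the log2 scale (SE 0.27, limma q = 0.0094), in a comparison where 63.9% of genes were called, 37.2% as higher and 26.7% as lower. Of the 10 genes, 6 were higher and 3 lower at 24 h than at 4 h. Per kilobase of its longest transcript, Ctgf was the most abundant of the 10 genes at 24 h, at 366 CPM per kb against 33.2 in control hearts, where Sparc led with 193.

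The sham-operated hearts of the second table differed from the control hearts of the first for both CCN genes. Ctgf was 527 and 554 CPM in the 2 sham libraries and Cyr61 was 195 and 172 CPM, above the control ranges of 65.3 to 95.7 and 39.5 to 48.5 CPM. The tables were scaled separately, and the operation, the table and the mice cannot be told apart, so this is given side by side without a test. Sparc, by contrast, was at 576 and 485 CPM against 378 to 543 CPM.

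Against those sham hearts, Cyr61 in Luc hearts at 4 h was 425, 448, 385 and 441 CPM, above both sham libraries. Its log2 fold change of 1.21 was not called over all genes (95% interval 0.27 to 2.14, limma q = 0.22), but was called when only the compared groups were fitted. Ctgf in the same hearts was 585, 539, 548 and 522 CPM and overlapped with sham (log2 fold change 0.02, 95% interval -0.63 to 0.67). Cyr61 was 169, 123 and 397 CPM in Luc libraries A, C and D at 24 h, and 146, 53.3, 165 and 59.5 CPM in libraries 1 to 4 at 48 h. Library D at 24 h stood near the 4 h level. Ctgf was 285, 227 and 512 CPM at 24 h and 276, 262, 187 and 351 CPM at 48 h, and the 48 h libraries were all below both sham libraries.

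From 4 h to 24 h in Luc hearts, Cyr61 fell by 1.07 on the log2 scale (SE 0.40, limma q = 0.043) and Ctgf fell by 0.77 (SE 0.28, limma q = 0.037). These calls were lost in 8 and 6 of the 24 fits that each left out a library. In this comparison 32.3% of genes were called, 24.5% as higher and 7.8% as lower, and the median over all genes was 0.14. From 24 h to 48 h Cyr61 fell by a further 1.10 (SE 0.40, limma q = 0.03). That call was lost without Luc library D at 24 h, without Luc library 2 or 4 at 48 h, and after rescaling the libraries to a median ratio (-0.86, limma q = 0.1), and when only the compared groups were fitted. Of the 10 genes, 4 were called between 4 h and 24 h and 5 between 24 h and 48 h, where 41.9% of all genes were called. Ctgf at 48 h was lower than in sham hearts (log2 fold change -1.04, SE 0.31, limma q = 0.016), a call that was lost without sham library 1, without sham library 2 and with array weights. Those sham hearts carry the 4 h label, and their 527 and 554 CPM lie above the 65.3 to 95.7 CPM of the control hearts.

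Thbs1 and Thbs2 encode thrombospondins, large trimeric glycoproteins that bind CD36 and CD47, restrain vessel growth and, for Thbs1, activate latent TGF-beta. Thbs1 lies at chr2:118111876-118127134 (plus strand) and Thbs2 at chr17:14665500-14694263 (minus strand). Thbs1 was 4.16, 4.64 and 1.98 CPM in control hearts, 53.4, 88.8 and 83.1 CPM at 4 h, and 215, 209, 135 and 104 CPM at 24 h. The 3 groups did not overlap. Compared to control, the ratio was 20.9 ± 9.78 at 4 h (log2 fold change 4.07, SE 0.32, limma q = 3.7e-05) and 46.2 ± 23.8 at 24 h (5.17, SE 0.29, limma q = 2.2e-07), and 24 h was also above 4 h (1.10, SE 0.29, limma q = 0.0066).

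In the second table Thbs1 separated infarcted from sham hearts at each time, while the Luc groups of the 3 times overlapped. It was 5.90 and 7.04 CPM in sham hearts, 64.1, 67.6, 77.2 and 54.9 CPM in Luc hearts at 4 h, 90.0, 48.4 and 33.3 CPM at 24 h, and 91.2, 42.5, 48.2 and 37.7 CPM at 48 h. The lowest Luc library was 33.3 CPM, above both sham libraries. Thbs1 was the only 1 of the 10 genes called between Luc and sham at 4 h (3.16, SE 0.43, limma q = 0.00017), where 1.55% of all genes were called, 1.25% as higher, and it was called at 24 h (2.85, SE 0.45, limma q = 6.8e-05) and 48 h (2.82, SE 0.43, limma q = 5.5e-05). The Luc groups of 4 and 24 h differed by -0.31 (95% interval -1.09 to 0.47) and those of 24 and 48 h by -0.03 (95% interval -0.81 to 0.75), neither of them called.

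Thbs2 took another course. It was 17.5, 24.5 and 21.9 CPM in control hearts, 23.4, 19.0 and 24.4 CPM at 4 h, and 5.78, 8.20, 16.8 and 4.60 CPM at 24 h. Library G, at 16.8 CPM, was near the lowest control library and the other 3 were far below. Thbs2 fell by 1.32 on the log2 scale at 24 h against control (SE 0.31, limma q = 0.0031) and was not called at 4 h (0.06, 95% interval -0.67 to 0.80). In the second table no comparison called Thbs2, and its group means lay between 17.4 CPM (Luc at 24 h) and 25.8 CPM (AC at 24 h). Those 2 groups did not overlap, at 16.1 to 18.1 CPM in Luc and 19.7 to 32.0 CPM in AC. Their log2 fold change was 0.52 (95% interval -0.06 to 1.10, limma q = 0.99).

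Spp1 encodes osteopontin, an integrin and CD44 ligand made by macrophages and by stressed fibroblasts, and Tnc encodes tenascin-C, an anti-adhesive glycoprotein of wounds. Spp1 is at chr5:104435111-104441054 (plus strand) and Tnc at chr4:63959785-64047016 (minus strand). Spp1 was 0.325, 0.484 and 0.520 CPM in control hearts, 0.602, 0.335 and 0.310 CPM at 4 h, and 124, 53.1, 49.5 and 83.7 CPM at 24 h. The 4 h libraries overlapped with control, with all 6 under 1 CPM, and the 24 h libraries were all far above them. The ratio at 24 h was 175 ± 88.0, the largest of the 10 genes, with a log2 fold change of 5.67 (SE 0.27, limma q = 7.5e-08). At 4 h the log2 fold change was -0.03 (95% interval -0.65 to 0.59, limma q = 0.97). The 7 monocyte and macrophage markers summed to 94.6 to 160 CPM in control hearts, 112 to 127 CPM at 4 h and 348 to 745 CPM at 24 h. Of these, 5 of 7 were called as higher at 24 h than in control, beside 35.6% of all genes. Their part in the Spp1 difference was not tested.

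Tnc was 1.63, 1.01 and 0.552 CPM in control hearts, 2.59, 3.97 and 2.01 CPM at 4 h, and 122, 56.0, 101 and 75.7 CPM at 24 h. The 3 groups did not overlap. At 4 h the log2 fold change of 0.91 was not called (95% interval 0.27 to 1.54, limma q = 0.16), and at 24 h it was 5.42 (SE 0.27, limma q = 1e-07). From 4 h to 24 h Spp1 was higher by 5.70 (SE 0.27, limma q = 2.8e-07) and Tnc by 4.51 (SE 0.27, limma q = 6e-07) on the log2 scale.

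In injected hearts Spp1 was low at 24 h and higher at 48 h, whereas Tnc was higher than in sham hearts from 24 h on. As for every comparison over time in these hearts, time and library series cannot be told apart. Spp1 was 0.293 and 0.349 CPM in sham, 0.979, 0.316, 0.711 and 0.442 CPM in Luc hearts at 4 h, 2.41, 1.28 and 2.19 CPM at 24 h, and 31.5, 148, 7.86 and 93.4 CPM at 48 h. The Luc level at 24 h, up to 2.41 CPM, may be set beside 49.5 to 124 CPM in the uninjected hearts of 24 h. Cardiomyocyte markers summed to 48735 to 62117 CPM in these Luc hearts and 15735 to 28124 CPM in those uninjected hearts. Monocyte and macrophage markers summed to 86.1 to 119 and 348 to 745 CPM. Only the 24 h libraries of the second table have Br in their titles, which the labels do not explain. The injection, the table and the tissue content cannot be told apart. The libraries at 48 h spread widely, with 7.86 CPM in library 3 and 148 CPM in library 2, and all were above those of 24 h. Spp1 was higher at 48 h than at 24 h by 3.94 on the log2 scale (SE 0.59, limma q = 4.3e-05), in a comparison where 9.32% of genes were called as higher and 32.6% as lower, and the median over all genes was -0.25. Between the same groups the summed monocyte and macrophage markers went from 86.1 to 119 CPM at 24 h to 201 to 301 CPM at 48 h, with 6 of 7 called as higher, and 5 of 6 cardiomyocyte markers were called as lower. The part of these markers in the Spp1 difference was not tested. It was not called at 24 h against sham (1.14, 95% interval -0.31 to 2.60, limma q = 0.22), but was with a pseudocount of 0.1 or when only the compared groups were fitted. At 48 h against sham its log2 fold change was 5.09 (SE 0.67, limma q = 1.2e-05).

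Tnc was 0.815 and 0.952 CPM in sham, 2.45, 1.47, 2.10 and 1.55 CPM in Luc hearts at 4 h, 31.4, 7.37 and 3.45 CPM at 24 h, and 35.2, 60.8, 16.2 and 84.2 CPM at 48 h. Library A at 24 h was within the 48 h range. Tnc was called at 24 h against sham (2.50, SE 0.68, limma q = 0.0071), not without sham library 1, and at 48 h against sham (4.50, SE 0.64, limma q = 3e-05). The steps from 4 h to 24 h (1.89, SE 0.57, limma q = 0.014) and from 24 h to 48 h (2.00, SE 0.57, limma q = 0.0077) were called, the first not without Luc library A and the second not without Luc library D of 24 h.

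Postn encodes periostin, a marker of activated cardiac fibroblasts that promotes collagen crosslinking, and Fn1 forms the provisional matrix on which fibroblasts migrate. Postn is at chr3:54361107-54391042 (plus strand) and Fn1 at chr1:71585473-71653235 (minus strand). Postn was 29.8, 24.2 and 24.9 CPM in control hearts, 53.5, 28.2 and 37.0 CPM at 4 h, and 85.3, 50.6, 89.9 and 58.1 CPM at 24 h. The 4 h libraries overlapped with both other groups. Postn was called at 24 h against control (1.36, SE 0.23, limma q = 0.00034) and against 4 h (0.83, SE 0.23, limma q = 0.0085), and not at 4 h (0.53, 95% interval -0.02 to 1.08).

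Fn1 was 36.1, 27.3 and 33.5 CPM in control hearts, 51.8, 35.6 and 50.3 CPM at 4 h, and 217, 77.9, 132 and 96.6 CPM at 24 h. All 24 h libraries were above all others, with library C the highest. The log2 fold change against control was 1.89 at 24 h (SE 0.29, limma q = 0.00014) and 0.48 at 4 h (95% interval -0.19 to 1.16, limma q = 0.47).

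In the second table Postn was 36.6 and 26 CPM in sham, 37.1, 29.4, 40.2 and 28.8 CPM in Luc hearts at 4 h, 82.7, 65.1 and 80.5 CPM at 24 h, and 92.8, 86.8, 75.3 and 112 CPM at 48 h. Its 24 h range of 65.1 to 82.7 CPM was near the 50.6 to 89.9 CPM of the uninjected hearts at 24 h. Sparc, Cyr61 and Thbs2 also overlapped between these groups. Spp1, Tnc, Fn1, Thbs1, Ctgf and Sparcl1 did not. The tables were scaled separately, so this is given without a test. Postn was higher than in sham hearts at 24 h by 1.27 (SE 0.25, limma q = 0.00049) and at 48 h by 1.53 (SE 0.23, limma q = 5.6e-05) on the log2 scale. At 24 h 34.1% of all genes were called against sham, 25.3% as higher and 8.79% as lower, and of the 10 genes 3 were higher. At 48 h 30.1% of all genes were called, 13.7% as higher and 16.4% as lower, and of the 10 genes 5 were higher and 2 lower. Fn1 was 17.9 and 26.1 CPM in sham, 33.1, 31.0, 36.0 and 26.7 CPM at 4 h, 23.2, 26 and 38.6 CPM at 24 h, and 42.2, 91.9, 34.3 and 118 CPM at 48 h. The increase of Fn1 over sham was called at 48 h (1.5, SE 0.44, limma q = 0.012), not without sham library 1 or with only the compared groups, and between 24 h and 48 h (1.11, SE 0.38, limma q = 0.024). The latter was lost without Luc library A or C of 24 h, without Luc library 2 or 4 of 48 h, and with only the compared groups.

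Sparc (osteonectin) binds collagen and assists its deposition, and Sparcl1 (hevin) is its relative, found in vessels and quiescent stroma. Sparc is at chr11:55394159-55420081 and Sparcl1 at chr5:104079109-104114089, both on the minus strand. Sparc was 543, 378 and 409 CPM in control hearts, 815, 638 and 642 CPM at 4 h, and 607, 407, 544 and 457 CPM at 24 h. The 4 h libraries were above all others, but the log2 fold change of 0.66 against control was not called (95% interval 0.25 to 1.07, limma q = 0.11), although it was with array weights or when only the compared groups were fitted. At 24 h the difference from control was 0.18 (95% interval -0.20 to 0.57, limma q = 0.37). Sparc was lower at 24 h than at 4 h by 0.48 on the log2 scale (SE 0.17, limma q = 0.031), a call lost without 4 h library C or without 24 h library D or H.

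Sparcl1 was 289, 314 and 331 CPM in control hearts, 414, 266 and 380 CPM at 4 h, and 95.4, 83.2, 174 and 73.5 CPM at 24 h. As for Thbs2, library G was the highest at 24 h, here still below all other groups. Sparcl1 fell by 1.62 on the log2 scale at 24 h against control (SE 0.26, limma q = 0.00019) and fell by 1.78 against 4 h (SE 0.26, limma q = 0.00011). The ranges of 7 fibroblast markers were 905 to 1022 CPM in control, 1205 to 1515 CPM at 4 h and 514 to 1023 CPM at 24 h. Per 100 CPM of these markers, a ratio computed after the values were seen, Sparcl1 was 28.3 to 36.6, 22.1 to 27.3 and 12.9 to 17.0. On this scale Sparcl1 was lowest at 24 h. The 5 smooth muscle and pericyte markers summed to 624 to 841 CPM in control and 263 to 374 CPM at 24 h. The 5 endothelial markers summed to 490 to 504 and 358 to 558 CPM. In each of these 2 lists, 1 of 5 was called as higher and 2 as lower at 24 h. Over all genes, 35.6% were called as higher and 30.3% as lower there. The part of fibroblast and vessel markers in the Sparcl1 difference was not tested.

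In Luc hearts Sparcl1 was lowest at 48 h. It was 355 and 386 CPM in sham, 396, 381, 415 and 365 CPM at 4 h, 305, 334 and 541 CPM at 24 h, and 183, 122, 174 and 187 CPM at 48 h. All 4 libraries at 48 h were below all others. The log2 fold change at 48 h was -1.17 against sham (SE 0.24, limma q = 0.0011) and -1.21 against 24 h (SE 0.21, limma q = 2e-04), and after rescaling to a median ratio the latter was -0.96 (limma q = 0.0013). Sparc did not pass the test in any comparison of Luc hearts with sham or of Luc hearts over time, with log2 fold changes between -0.34 and 0.31. After rescaling to a median ratio it was called between 4 h and 24 h (-0.51, limma q = 0.028) and between 24 h and 48 h (0.56, limma q = 0.016).

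**Figure D3:**
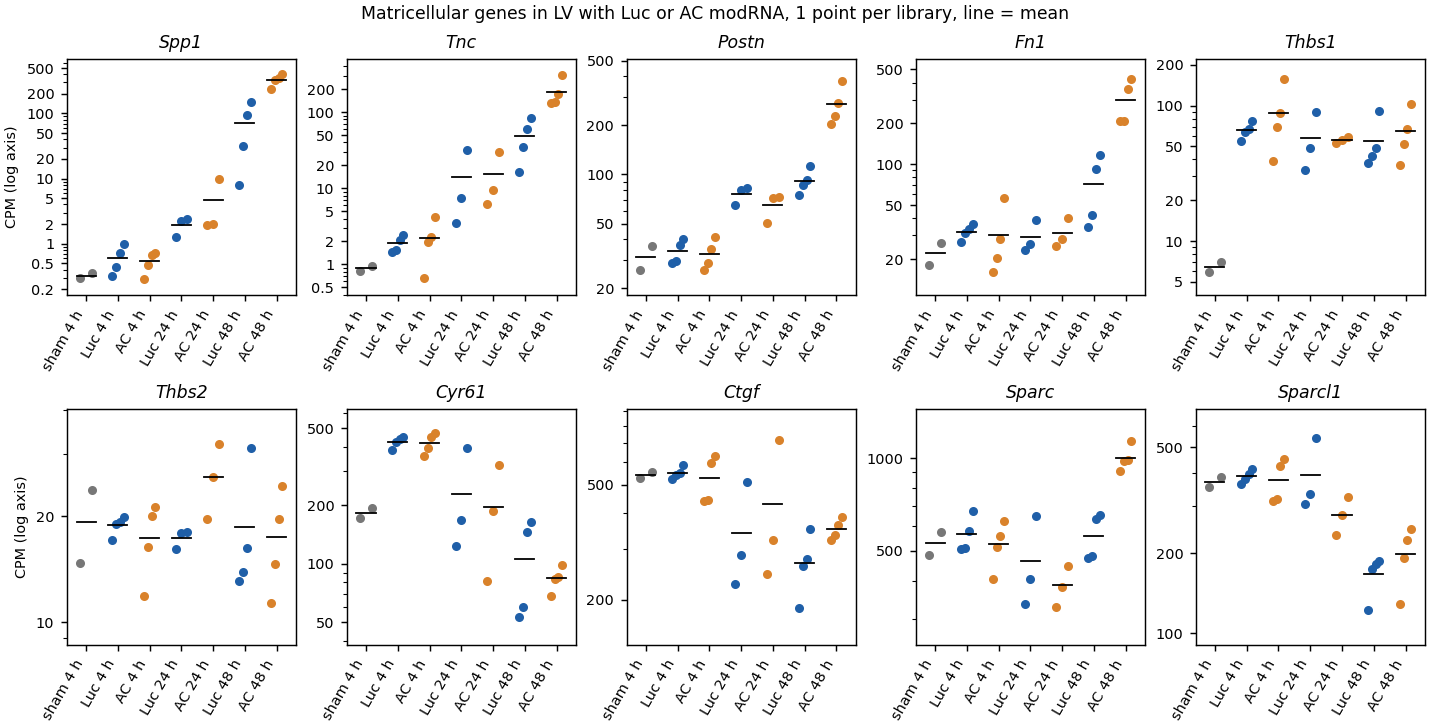
CPM of the 10 matricellular genes in the second table, on a log axis for each gene, with 1 point per library and a line at the group mean (2 sham, 4 Luc and 4 AC hearts at 4 h, 3 and 3 at 24 h, 4 and 4 at 48 h). AC hearts of 48 h lie above all Luc hearts of 48 h for Spp1, Tnc, Postn, Fn1 and Sparc, and AC and Luc hearts overlap at 4 h for all 10 genes.

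The comparison of AC with Luc modRNA asks what AC changed beyond injection and MI. At 4 h and at 24 h none of the 10 genes was called with limma, also at an unadjusted p under 0.05, and 0.00796% of all genes were called at each time, all of it as higher and 0% as lower. Over the 10 genes the log2 fold changes lay between -0.22 and 0.25 at 4 h and between -0.46 and 0.66 at 24 h. The 95% intervals reached from -1.19 to 1.16 at 4 h and from -1.13 to 1.96 at 24 h, widest for Spp1 and Tnc, so that differences of more than 1 on the log2 scale in those genes were within the intervals. The AC libraries of 24 h held 1.95, 9.98 and 2.00 CPM of Spp1 and 9.55, 30.3 and 6.13 CPM of Tnc, with library C the highest in both.

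At 48 h 5 of the 10 genes were higher in AC than in Luc hearts, and none was lower. In this comparison 15.3% of all genes were called, 12.1% as higher and 3.27% as lower. Of the calls, 78.7% were higher, against 50.7% after rescaling to a median ratio, which moved the median over all genes from 0.14 to 0.0027. The same 5 genes were called after that rescaling. The median of the 10 genes was 0.64, for a set chosen with earlier results of these data known.

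Spp1 was 323, 348, 398 and 236 CPM in AC libraries 1, 2, 4 and 5, against 31.5, 148, 7.86 and 93.4 CPM in Luc libraries 1 to 4. The groups did not overlap, and the SD was 68.1 CPM in AC and 63.2 CPM in Luc hearts around means of 326 and 70.2 CPM. The ratio of means was 4.65 ± 4.29 (propagated SD, n = 4 and 4) and the log2 fold change 2.84 (SE 0.54, limma q = 0.0014), or 2.70 (limma q = 0.0021) after the rescaling. It was 2.06 without Luc library 3, 3.42 without Luc library 2 and 1.53 with array weights, still called in each. Per kilobase Spp1 was the second most abundant of the 10 genes in AC hearts at 48 h, with 216 CPM per kb after Sparc with 436, and the fifth in Luc hearts, with 46.6.

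Fn1 was 208, 356, 422 and 209 CPM in AC hearts, against 42.2, 91.9, 34.3 and 118 CPM in Luc hearts. The lowest AC library was well above the highest Luc library. The ratio was 4.18 ± 2.78 and the log2 fold change 2.16 (SE 0.36, limma q = 0.00038), or 1.53 with array weights. Postn was 205, 276, 373 and 228 CPM against 92.8, 86.8, 75.3 and 112 CPM, again without overlap. Its ratio of 2.95 ± 0.95 had the smallest q value of the 10 genes (log2 fold change 1.53, SE 0.19, limma q = 5.6e-05).

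Tnc was 135, 173, 305 and 132 CPM in AC hearts, against 35.2, 60.8, 16.2 and 84.2 CPM in Luc hearts. The groups did not overlap, and the log2 fold change of 2.05 (SE 0.53, limma q = 0.012) lost its call without AC library 4 or without Luc library 3, with q values over all fits from 0.004 to 0.069, and was 1.40 with array weights. Sparc was 911, 979, 1135 and 986 CPM against 654, 473, 480 and 636 CPM, a smaller difference without overlap (ratio 1.79 ± 0.35, log2 fold change 0.85, SE 0.18, limma q = 0.003).

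The other 5 genes overlapped between AC and Luc hearts at 48 h. Cyr61 was 68.5, 85.3, 98.4 and 83.7 CPM in AC hearts (log2 fold change -0.17, 95% interval -0.93 to 0.60) and Ctgf was 334, 388, 364 and 323 CPM (0.42, 95% interval -0.11 to 0.95). Thbs1 was 36.4, 67.4, 103 and 52.2 CPM (0.22, 95% interval -0.50 to 0.95) and Thbs2 was 11.4, 19.7, 24.4 and 14.6 CPM (-0.05, 95% interval -0.55 to 0.45). Sparcl1 was 129, 224, 247 and 191 CPM (0.23, 95% interval -0.18 to 0.64), still below both sham libraries.

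**Figure D4:**
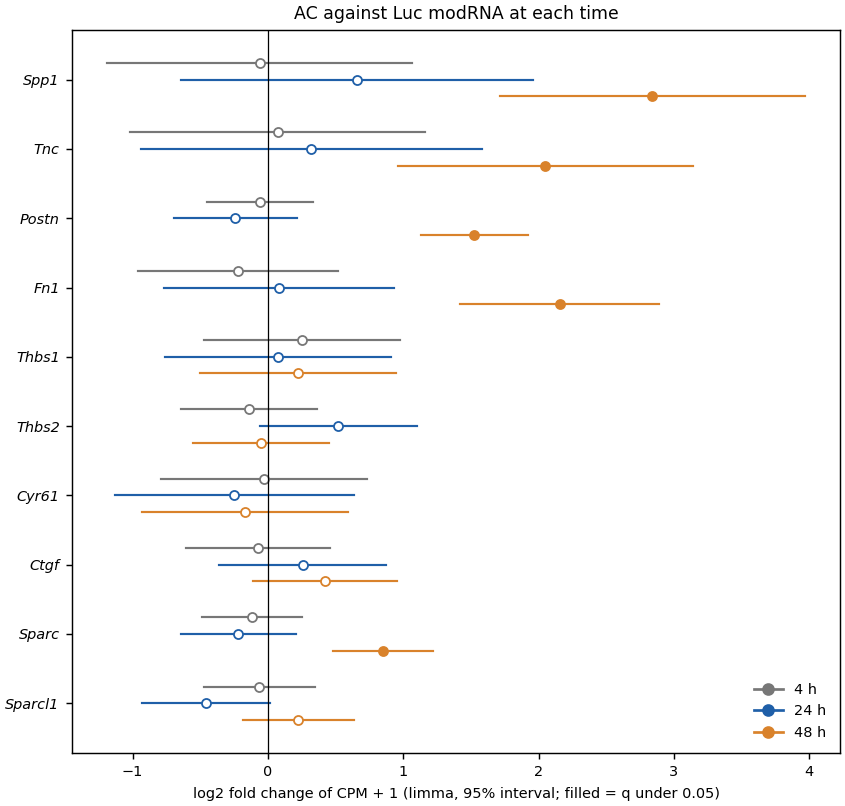
Log2 fold change of CPM + 1 between AC and Luc hearts for the 10 genes at 4, 24 and 48 h, with 95% intervals from limma, and filled points for a q value under 0.05. Filled points appear at 48 h alone, for Spp1 (2.84), Fn1 (2.16), Tnc (2.05), Postn (1.53) and Sparc (0.85).

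The difference between times was tested itself as an interaction. The AC effect was larger at 48 h than at 4 h for Postn by 1.58 (SE 0.27, limma q = 0.0048), Fn1 by 2.38 (SE 0.50, limma q = 0.012), Sparc by 0.97 (SE 0.25, limma q = 0.035) and Spp1 by 2.90 (SE 0.77, limma q = 0.037) on the log2 scale, where 3.35% of all genes were called, 2.88% as higher. The calls of Spp1 and Sparc were lost in 14 and 9 of the 24 fits that each left out a library. Tnc did not pass (1.98, 95% interval 0.44 to 3.52, limma q = 0.15). Against 24 h the effect at 48 h was larger for Postn by 1.77 (SE 0.29, limma q = 0.0027), Sparc by 1.07 (SE 0.27, limma q = 0.035) and Fn1 by 2.07 (SE 0.54, limma q = 0.041), where 2.56% of genes were called, 2.23% as higher, and those of Sparc and Fn1 were lost in 9 and 13 of the 24 fits, and both after the median-ratio rescaling. None of the 10 genes passed between 24 h and 4 h by limma, also at an unadjusted p under 0.05, and 0.00796% of all genes did, 0% with a larger effect at 24 h. The 95% intervals there reached from -1.42 to 2.44.

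Cell type markers moved with these differences. At 48 h the 7 fibroblast markers summed to 2085 to 3533 CPM in AC and 877 to 1700 CPM in Luc hearts, with 5 of 7 called as higher, and the 7 monocyte and macrophage markers to 465 to 660 and 201 to 301 CPM, also with 5 of 7 higher. The 6 cardiomyocyte markers summed to 21653 to 27061 CPM in AC and 28623 to 38339 CPM in Luc hearts, with 2 of 6 called as lower. The 4 atrial markers summed to 1227 to 2966 and 533 to 1170 CPM, with 1 of 4 called as higher. Among smooth muscle and pericyte markers 2 of 5 were called as higher, among neutrophil markers 1 of 6 as lower, and among endothelial markers none of 5, also at an unadjusted p under 0.05 by limma. Over all genes, 12.1% were called as higher and 3.27% as lower in this comparison. All these markers were detected in both groups. Their part in the differences of the 10 genes was not tested.

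Ratios to the marker sums were computed after the values were seen and are given as a description. Per 100 CPM of fibroblast markers, Postn was 9.47 to 10.6 in AC and 6.61 to 8.58 in Luc hearts at 48 h and Fn1 was 9.36 to 12.2 and 3.73 to 7.86, without overlap in either. Sparc relative to the same markers was 32.1 to 44.2 in AC and 37.4 to 57.7 in Luc hearts, with the median lower in AC (38.7 and 47.6). Per 100 CPM of monocyte and macrophage markers, Spp1 was 50.7 to 64.1 in AC and 3.91 to 49.2 in Luc hearts, above all Luc libraries. Tnc relative to fibroblast markers was 5.93 to 8.63 and 1.85 to 5.20, also without overlap, and that of Spp1, 10.6 to 15.5 and 0.896 to 12.7, overlapped. Of the genes that were not called, Ctgf was lower in all AC than in all Luc hearts relative to fibroblast markers (10.3 to 16.0 and 20.6 to 24.4). So were Sparcl1 (6.18 to 8.58 and 10.4 to 19.9) and Thbs2 (0.546 to 0.691 and 0.818 to 2.75), and Cyr61 and Thbs1 overlapped. In CPM each of these genes overlapped between AC and Luc hearts. The share of all genes without overlap on this scale was not computed. The fibroblast sum, which includes the collagen genes Col1a1, Col1a2 and Col3a1, was itself higher in AC hearts (2085 to 3533 against 877 to 1700 CPM). A gene of equal CPM in both groups therefore comes out lower in AC hearts on this scale.

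**Figure D5:**
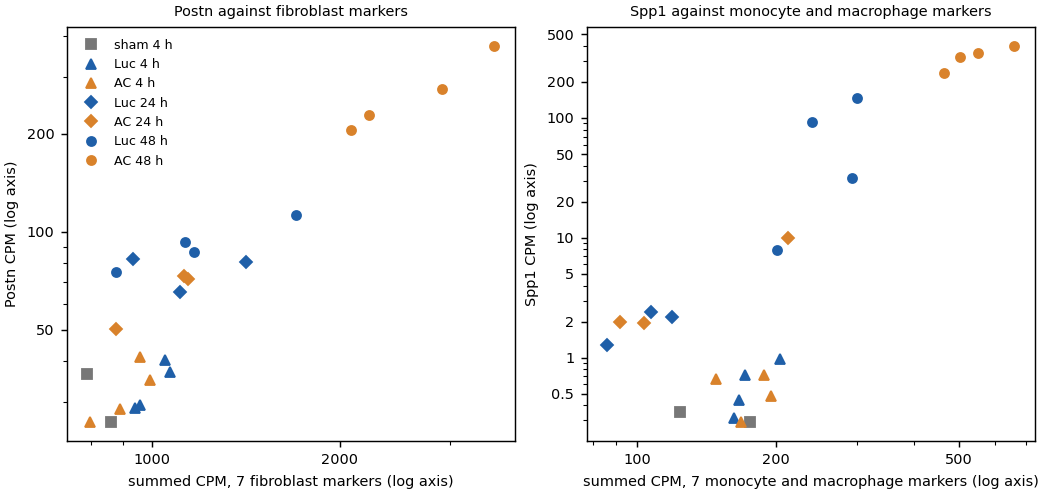
Pairs chosen after the values were seen, Postn against the summed CPM of 7 fibroblast markers (left) and Spp1 against that of 7 monocyte and macrophage markers (right) in the 24 libraries of the second table, on log axes, with 1 point per library. The AC libraries of 48 h, at 205 to 373 CPM of Postn and 236 to 398 CPM of Spp1, are also the 4 highest on the marker axes.

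The receptors and regulators of these proteins were counted from lists. Of 14 receptor genes tested of 15 listed, 9 were higher and 2 lower at 24 h post-MI without injection, beside 35.6% of all genes higher and 30.3% lower. The largest difference was in Cd44, a receptor of osteopontin (log2 fold change 4.48, SE 0.19, limma q = 4.4e-08). Next came Itga5, the alpha subunit of the fibronectin receptor (3.15, SE 0.16, limma q = 1.2e-07), and Sdc1, a syndecan (3.08, SE 0.19, limma q = 3.5e-07). At 4 h only Sdc4, another syndecan, was called (1.28, SE 0.22, limma q = 0.012). Between AC and Luc hearts at 48 h, 2 of 14 were higher, Sdc1 (0.74, SE 0.20, limma q = 0.018) and Itgb5 (0.50, SE 0.13, limma q = 0.015), and 1 was lower, Cd36 (-0.99, SE 0.19, limma q = 0.0013), beside 15.3% of all genes called. Cd36, a thrombospondin receptor and fatty acid transporter, had means of 795 CPM in AC and 1658 CPM in Luc hearts.

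Of the 24 genes of the YAP, TAZ, SRF and TGF-beta list, 15 were higher and 1 lower at 24 h post-MI without injection. Over all genes 35.6% were higher and 30.3% lower. Among them Ankrd1, a YAP target of muscle, was at 8984 CPM (log2 fold change 2.89, SE 0.23, limma q = 1.6e-06) and Tgfb2, a TGF-beta ligand, at 62.5 CPM (2.54, SE 0.17, limma q = 6.9e-07). Between AC and Luc hearts at 48 h 3 of 24 were higher and none lower, namely Tgfb3 (0.85, SE 0.17, limma q = 0.0019), Tgfb1 (0.63, SE 0.18, limma q = 0.021) and Tead2 (0.56, SE 0.14, limma q = 0.012), where 15.3% of all genes were called.

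Of 16 structural relatives listed, 10 passed the filter in the first table and 12 in the second. At 24 h without injection, where 66% of all genes were called, 5 of 10 were higher and 3 lower, led by Tgfbi, a periostin relative (2.53, SE 0.21, limma q = 2.4e-06), Thbs4 (2.53, SE 0.19, limma q = 9.4e-07) and Wisp1, a CCN protein (2.13, SE 0.17, limma q = 1.6e-06), and at 4 h none of 10 was called, with 1 at an unadjusted p under 0.05. In Luc hearts 9 of 12 were higher at 24 h than in sham and none was lower, beside 25.3% of all genes higher and 8.79% lower. The largest difference was in Comp, the thrombospondin of cartilage and tendon, with 13.5 and 0.671 CPM (2.89, SE 0.41, limma q = 2.1e-05). Comp fell by 2.27 on the log2 scale from 24 h to 48 h (SE 0.35, limma q = 5.4e-05). Of 4 atrial markers, 4 were also called as higher in Luc hearts at 24 h than in sham. From 24 h to 48 h 3 of 4 were called as lower and 1 as higher, beside 32.6% and 9.32% of all genes. The part of tissue content in the 24 h differences was not tested. At 48 h AC hearts held more Wisp1 (1.65, SE 0.34, limma q = 0.0027) and Fstl1, a SPARC relative (0.99, SE 0.16, limma q = 0.00028), and less Spock2, a testican (-2.05, SE 0.39, limma q = 0.0013), than Luc hearts.

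For each gene, the other gene of at least 10 CPM with the most similar profile was found by Pearson's r of log2(CPM + 1), over 10 libraries in the first table and 24 libraries in the second. These values describe libraries that share groups, depth and scaling, and carry no test. In the second table Spp1 was closest to Cd68, a macrophage marker (r = 0.970), Postn to Mpeg1, a macrophage gene (0.983), Fn1 to Col5a2 (0.978) and Sparc to Col3a1 (0.919), both collagens, and Tnc to Aldh1a2 (0.977). The closest genes were Adamts4 for Thbs1 (0.889), Man2a2 for Sparcl1 (0.916), Gas1 for Ctgf (0.820) and Dusp16 for Thbs2 (0.766). In the first table, where most of the spread lies between 24 h and the rest, the closest genes were Arhgdia for Spp1, Sars for Tnc, Gadd45g for Thbs1, Gnb5 for Thbs2, Tpst2 for Postn, Crip1 for Sparc, Col14a1 for Sparcl1, Apold1 for Cyr61, Xirp1 for Ctgf and Ctsc for Fn1, with r between 0.918 and 0.998. None of the 9 genes given for both tables had the same closest gene in both.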

How the data were processed

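RNA of the LV was sequenced in 10 uninjected and 24 further libraries. The authors used STAR and mm10 for alignment, quantified RefSeq genes by expectation-maximization and deposited TMM-normalized CPM. The second table holds deposited CPM with 1 added, which was subtracted, and its depth is unknown. The first held an estimated 12553519 to 18952669 reads per library. Of the values under 1 CPM in a library of the first table, 83.2% to 85.2% were whole multiples of 1 read (within 0.05 of a read), which was taken as too few for a count test, so limma 3.58.1 in R 4.3.3 (eBayes with trend) was run on log2(CPM + 1) for genes averaging 1 CPM or more, each table in 1 model without covariates, with Benjamini-Hochberg adjusted p-values. Fold changes on this scale understate those of low genes. The script was tested on simulated data. The members and lists were chosen with earlier results of these data known. Genes named beside the members are the nearest profile per table and up to 3 called genes per pathway list by size of change, chosen from those comparisons described, and some of them are not reported here. Alternatives were a pseudocount of 0.1, no filter or 10 CPM, median-ratio rescaling, the compared groups alone, no trend, array weights, replicate numbers as a block, no subtraction and each library left out. Coordinates are RefSeq genes on mm10, lengths GENCODE M21.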

Additional observations from a re-analysis of the deposited data

Results flagged for a closer look

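In 50 sets of 1 gene in 1 group of 4 libraries, none had a library that stood apart from the other 3 by Dixon's test, which chance alone would pass in about 1 set in 20. A difference between time points that passed limma's test was found 25 times, and each is given here as a log2 difference of the later minus the earlier time. Between 24 h and 4 h post-MI without injection, the differences were 5.70 for Spp1, 4.51 for Tnc, 1.40 for Fn1, 1.10 for Thbs1, 0.94 for Ctgf, 0.83 for Postn, -0.48 for Sparc, -1.38 for Thbs2 and -1.78 for Sparcl1. Between 24 h and 4 h in Luc hearts they were 1.89 for Tnc, 1.15 for Postn, -0.77 for Ctgf and -1.07 for Cyr61. Between 48 h and 24 h in Luc hearts they were 3.94 for Spp1, 2.00 for Tnc, 1.11 for Fn1, -1.10 for Cyr61 and -1.21 for Sparcl1. The 4 h and sham libraries carry one series of sample numbers, the 48 h libraries another and the 24 h libraries none, so that time and library series cannot be told apart. The difference between AC and Luc was larger at 48 h than at 4 h by 2.90 for Spp1, 2.38 for Fn1, 1.58 for Postn and 0.97 for Sparc, and larger at 48 h than at 24 h by 2.07 for Fn1, 1.77 for Postn and 1.07 for Sparc.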

How the results depend on the processing

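The 10 genes were refitted in 4095 alternative fits of 140 differences, of which 3858 kept direction and side of the threshold, 97 lost a call, 20 gained one and 120 changed sign. No value that changed sign was called in either fit, and the largest was 0.51 in size. The number of the 10 genes called became 7 of 10 at 4 h post-MI against control with array weights, 2 in Luc at 4 h against sham with only the compared groups or with the replicate block, 2 in Luc at 24 h against 4 h without a filter, and 3 in Luc at 48 h against 24 h with only the compared groups. For the AC effect it became 2 at 48 h against 4 h with a filter at 10 CPM, and 1 at 48 h against 24 h with that filter, after median-ratio rescaling or with only the compared groups. Leaving out each library gave 1 to 5 genes in Luc at 24 h against 4 h, 3 to 5 in Luc at 48 h against 24 h, and 2 to 4 and 1 to 3 for the AC effect at 48 h against 4 h and 24 h. The cause was not tested. Over all genes, AC against Luc at 48 h called 1926 genes, 254 with the replicate block, 823 with a filter at 10 CPM, 3178 with array weights and 812 to 2890 without 1 library, and 4 h post-MI against control called 296, 2500 with array weights, 715 with only the compared groups and 105 to 560 without 1 library. Same-numbered libraries did not deviate together in every pair, with correlations from -0.14 to 0.25 at 4 h, -0.07 to 0.09 at 24 h and -0.21 to 0.20 at 48 h between AC and Luc. For 24 h against 4 h post-MI they were 0.015 for C and 0.34 for D. The main fits did not pair the libraries. So few pairs cannot settle whether same-numbered libraries were handled together. The block also ended the calls of Sparc between AC and Luc at 48 h, Ctgf at 24 h against 4 h post-MI, and Ctgf in Luc at 48 h against sham. Depth limits Spp1 and Tnc where they were near or under 1 CPM, and is unknown in the second table.

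When each library was left out in turn, the log2 fold change crossed 0 in the following ranges. For 4 h post-MI against control it spanned 0 in Spp1 (-0.12 to 0.022) and Thbs2 (-0.065 to 0.17). For Luc 4 h against sham it spanned 0 in Thbs2 (-0.32 to 0.33), Postn (-0.12 to 0.35), Sparc (-0.031 to 0.22) and Ctgf (-0.016 to 0.056). For Luc 24 h against sham it spanned 0 in Thbs2 (-0.43 to 0.22), Sparcl1 (-0.21 to 0.20) and Cyr61 (-0.34 to 0.50). For Luc 48 h against sham it spanned 0 in Thbs2 (-0.42 to 0.23) and Sparc (-0.056 to 0.19). For Luc 24 h against 4 h it spanned 0 in Thbs1 (-0.69 to 0.013), Sparcl1 (-0.28 to 0.13) and Fn1 (-0.35 to 0.0096). For Luc 48 h against 24 h it spanned 0 in Thbs1 (-0.35 to 0.35), Thbs2 (-0.26 to 0.14) and Ctgf (-0.54 to 0.043). For AC against Luc at 4 h it spanned 0 in Spp1 (-0.15 to 0.044), Tnc (-0.18 to 0.36), Thbs1 (-0.077 to 0.58), Thbs2 (-0.24 to 0.0199), Postn (-0.17 to 0.042), Sparc (-0.21 to 0.00013), Sparcl1 (-0.15 to 0.0205), Cyr61 (-0.091 to 0.039), Ctgf (-0.17 to 0.00696) and Fn1 (-0.57 to 0.017). For AC against Luc at 24 h it spanned 0 in Tnc (-0.31 to 1.12), Thbs1 (-0.25 to 0.46), Sparc (-0.42 to 0.054), Cyr61 (-0.71 to 0.28), Ctgf (-0.19 to 0.59) and Fn1 (-0.11 to 0.29). For AC against Luc at 48 h it spanned 0 in Thbs1 (-0.032 to 0.49), Thbs2 (-0.22 to 0.22) and Cyr61 (-0.43 to 0.10). For the AC effect at 24 h against 4 h it spanned 0 in Tnc (-0.38 to 1.05), Thbs1 (-0.51 to 0.20), Sparc (-0.30 to 0.17), Cyr61 (-0.68 to 0.31) and Ctgf (-0.12 to 0.67). For the AC effect at 48 h against 4 h it spanned 0 in Thbs1 (-0.36 to 0.30), Thbs2 (-0.078 to 0.36) and Cyr61 (-0.40 to 0.13). For the AC effect at 48 h against 24 h it spanned 0 in Thbs1 (-0.23 to 0.47), Cyr61 (-0.44 to 0.54) and Ctgf (-0.17 to 0.61).

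With array weights the values of changed sign were 0.0052 for Spp1 and -0.0092 for Thbs2 in 4 h post-MI against control, -0.015 for Thbs2 and -0.0041 for Ctgf in Luc 4 h against sham, -0.02 for Sparc in Luc 48 h against sham, -0.20 for Thbs2 in Luc 48 h against 24 h, 0.054 for Sparc in AC against Luc at 4 h, 0.29 for Cyr61 and -0.032 for Fn1 in AC against Luc at 24 h, 0.10 for Thbs2 and 0.35 for Cyr61 in AC against Luc at 48 h, -0.093 for Tnc and 0.45 for Cyr61 in the AC effect at 24 h against 4 h, 0.10 for Thbs1 and 0.51 for Cyr61 in the AC effect at 48 h against 4 h, -0.24 for Ctgf in the AC effect at 48 h against 24 h. After median-ratio rescaling the values of changed sign were -0.015 for Thbs2 and -0.0042 for Ctgf in Luc 4 h against sham, -0.16 for Sparcl1 and -0.055 for Cyr61 in Luc 24 h against sham, 0.21 for Thbs1 in Luc 48 h against 24 h, -0.053 for Thbs2 in the AC effect at 48 h against 4 h, -0.033 for Thbs1, -0.10 for Cyr61 and -0.022 for Ctgf in the AC effect at 48 h against 24 h. With the replicate block the values of changed sign were -0.072 for Sparc in 24 h post-MI against control, 0.11 for Thbs2 in Luc 48 h against sham, 0.10 for Cyr61 in AC against Luc at 48 h.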
